A study of Mus musculus with 5 samples.

Results

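Caveolae are small flask-shaped pits of the plasma membrane. This account covers the mouse genes of their coat, measured on 5 arrays of Neuro2A, a mouse neuroblastoma cell line. The set was named gene by gene as Cavin1, Cavin2, Cavin3, Cav1, Cav2, Ehd2 and Pacsin2, and took every non-control probe set whose platform annotation gave exactly 1 of these symbols. That gave 15 of 45037 probe sets, for 6 of the 7 genes. No probe set carried Pacsin2 as its only symbol, so array values of Pacsin2 were not analysed here. The set was chosen by the measured signals of Cavin2, which separated parental and EGFP knockdown cells from the other 3 lines, so that contrast is given for every member as a description, with no test.

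All 5 lines were Neuro2A cells under standard culture. The control arm held parental cells with no vector (control replicate 1), a line transfected with an empty vector (replicate 2) and a line carrying a vector that knocks down EGFP (replicate 3). KDM7, a histone demethylase encoded by Kdm7a, was knocked down in 2 further stable lines, each with its own vector. The study compared these lines to learn how KDM7 affects gene expression. Each line was measured on 1 array, so a line has no replicate of its own, and the labels do not say whether a line is 1 clone or a pool. P-values therefore measure only the spread between these 5 arrays.

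Caveolins (Cav1, Cav2) are membrane-inserted proteins that shape the caveolar bulb, and cavins are soluble proteins that polymerise on it from the cytosol. Cavin1 is required for caveolae to form, Cavin2 binds phosphatidylserine and helps to curve the membrane, and Cavin3 also binds protein kinase C delta. Ehd2 is an ATPase that sits at the caveolar neck and holds it at the cell surface. Caveolae are abundant in adipocytes, endothelial cells, fibroblasts and muscle cells, and are generally scarce in neurons.

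The start-site window of Cavin2 is shown with those of Tmeff2, the gene next to it on the chromosome and the one with the most similar profile across the 5 arrays, and of its paralog Cavin1, which was dim on every array. The sequences are from RefSeq on build GRCm38.p6, each 250 bases before to 50 bases after the annotated start, 5′ to 3′ on the gene's strand. The windows are chr1:51288876-51289175 (plus strand) for Cavin2, chr1:50927273-50927572 (plus strand) for Tmeff2 and chr11:100970568-100970867 (minus strand) for Cavin1. Capitals mark matches, on either strand, to the motifs listed after the sequences.
Cavin2: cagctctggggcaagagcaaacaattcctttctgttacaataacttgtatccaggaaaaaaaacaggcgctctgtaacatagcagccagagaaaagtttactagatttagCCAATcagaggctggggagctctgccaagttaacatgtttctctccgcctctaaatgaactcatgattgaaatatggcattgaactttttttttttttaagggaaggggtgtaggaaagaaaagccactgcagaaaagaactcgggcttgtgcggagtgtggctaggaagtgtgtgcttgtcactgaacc
Tmeff2: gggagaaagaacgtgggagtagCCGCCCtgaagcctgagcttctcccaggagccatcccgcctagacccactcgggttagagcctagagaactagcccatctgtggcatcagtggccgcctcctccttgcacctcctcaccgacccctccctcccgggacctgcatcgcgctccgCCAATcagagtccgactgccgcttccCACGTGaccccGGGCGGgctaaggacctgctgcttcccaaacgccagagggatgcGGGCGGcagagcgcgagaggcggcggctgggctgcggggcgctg
Cavin1: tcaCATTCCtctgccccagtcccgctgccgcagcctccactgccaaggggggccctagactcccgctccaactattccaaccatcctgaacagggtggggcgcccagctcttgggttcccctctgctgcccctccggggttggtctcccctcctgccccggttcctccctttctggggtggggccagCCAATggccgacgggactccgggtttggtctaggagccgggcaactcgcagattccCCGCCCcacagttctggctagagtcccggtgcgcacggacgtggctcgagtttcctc

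The motifs searched were the TATA box (TATAAA), the GC box (GGGCGG), the CCAAT box, the E-box (CACGTG), the AP-1 site (TGANTCA), the TEAD site (GGAATG) and the CArG box. The Cavin2 window had 1 CCAAT match, starting at base 111, and no other. Tmeff2 had 1 CCAAT match at base 176, an E-box at base 202 and 3 GC boxes. Cavin1 had a CCAAT match, a GC box and a TEAD match. No matches overlapped in the printed windows. Among all 32851 windows of the same length, 37.4% held CCAAT, 35.7% a GC box, 14.7% a TEAD match, 13.6% a TATA box, 7.81% an AP-1 match, 7.15% an E-box and 1.63% a CArG box. Base composition differed within the family in these windows. The Cavin2 window had a GC content of 43.3%, with 4 CpG dinucleotides, against a median of 52.7% and 7 over all windows. The 6 windows of the other 4 measured members with an entry had a GC content of 59.3% to 67.0% and 13 to 18 CpG dinucleotides. Pacsin2 had 3 windows, at 48.0%, 53.3% and 65.3% GC with 4, 3 and 27 CpG dinucleotides, so a low CpG count was not found in Cavin2 alone. The Tmeff2 window had a GC content of 67.7% and 24 CpG dinucleotides.

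The signals are linear array intensities that the authors had scaled to a common level, and a probe set was kept for testing when its mean log2 signal corresponded to at least 40.5, the median of all probe sets. Of 45037 probe sets 22519 were kept. Among the members 6 of 15 probe sets were kept, 3 of Cavin2 and 3 of Ehd2. The other 9 fell under the filter and were left out of the test, and any difference given for them rests on these dim signals. Kdm7a, the targeted gene, had signals of 487 to 665 over the controls and 130 to 136 over the KDM7 knockdown lines by probe set 1456150_at, with an adjusted p of 0.0468 in limma (log2 change -2.13, SE 0.20). That pass did not hold in every processing setting. The 2 other kept Kdm7a probe sets did not pass. Probe set 1435867_at had 648 to 872 over the controls and 143 to 231 over the knockdown lines, with an adjusted p of 0.128 in limma. Probe set 1427359_at had 62.4 to 103 and 19.9 to 25.2, with an adjusted p of 0.869 in limma. By all 3 both knockdown lines lay below all controls. Neuroblastoma markers were present, with 11 of 12 measured genes kept and a summed signal of 52720 to 60309 over the lines. Of genes that mark caveolae-rich cells, 2 of 9 fibroblast, 1 of 9 endothelial, 1 of 6 adipocyte and 4 of 8 smooth muscle markers were kept. The kept ones were Col1a2 and Pdgfra for fibroblasts, Plvap for endothelium, Pparg for adipocytes, and Acta2, Myl9, Des and Smtn for smooth muscle. Col1a1, Pecam1, Cdh5, Adipoq and Myh11, singled out after their values were seen, were under the filter.

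Cavin2 was high in 2 lines and lower in 3, the pattern it was chosen for. Among kept probe sets Ehd2 was the only other member to set beside Cavin2. Probe set 1416778_at had a signal of 4311 in the parental line, 3463 in the EGFP knockdown line, 477 in the empty vector line, 613 in KDM7 knockdown line 1 and 546 in line 2. The parental and EGFP knockdown lines were thus both high, the other 3 lines lay close together, and the groups did not overlap. The mean was 3887 ± 599 (SD, n = 2) in the first pair and 545 ± 68.0 (SD, n = 3) in the other 3 lines, a 7.12-fold difference by mean log2 values (2.83 in log2).

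The other probe sets of Cavin2 showed the same order of the pair over the rest. Probe set 1416779_at, annotated from the same transcript record as 1416778_at, had 2747 in parental, 2012 in EGFP knockdown, 328 in empty vector, 398 in KDM7 knockdown 1 and 276 in KDM7 knockdown 2 cells. Probe set 1443832_s_at, annotated from another record and of a class that can match several transcripts, had 2644, 1980, 257, 375 and 216 in the same order of lines. Their log2 differences were 2.83 and 3.06. The 3 probe sets are readings of 1 RNA on the same arrays and are not replicates. After each was centred on its own mean, they differed by at most 0.45 on the log2 scale on any array.

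**Figure D1:**
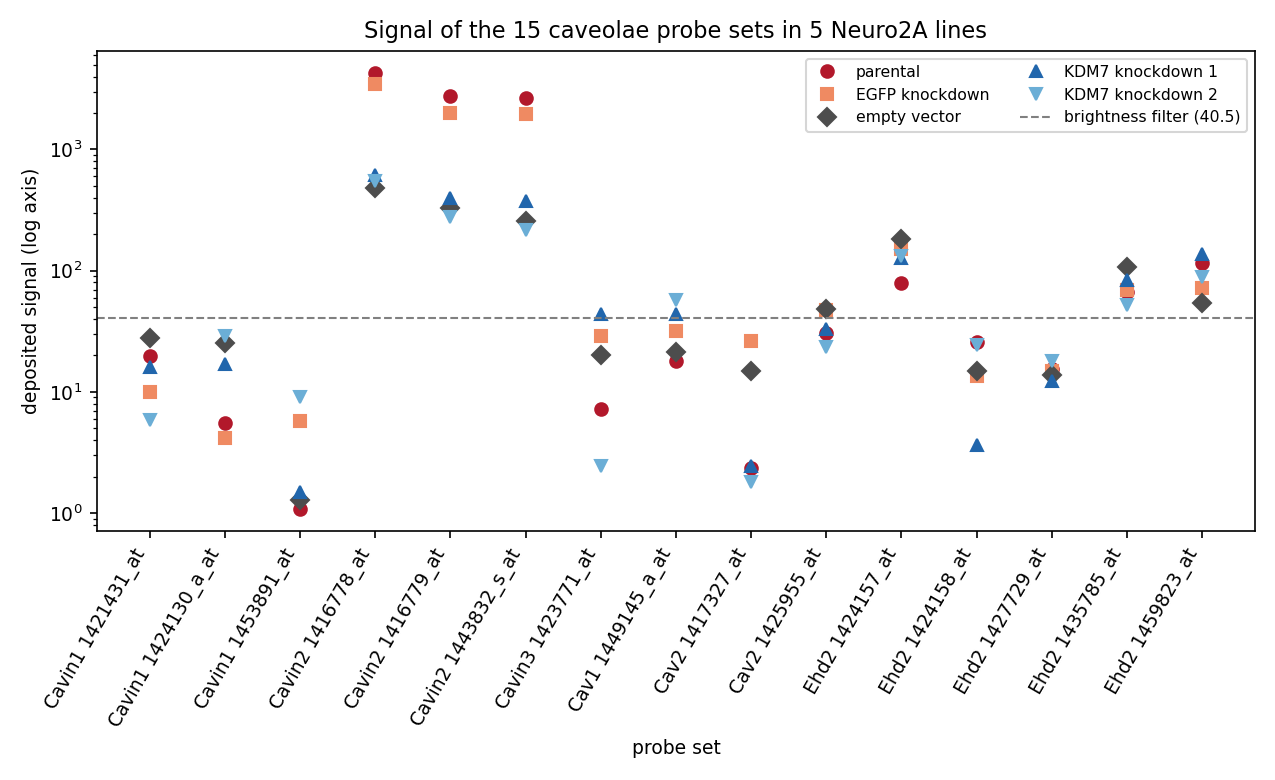
Deposited signal (log axis) of the 15 caveolae probe sets in each of the 5 Neuro2A lines, 1 point per line, with the brightness filter of 40.5 as a dashed line. The Cavin2 points split into a pair at 1980 to 4311 and 3 lines at 216 to 613, while Cavin1, Cavin3, Cav1 and Cav2 lie mostly under the filter.

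Within the high pair the parental line was above the EGFP knockdown line by all 3 probe sets, at 1.24-fold, 1.37-fold and 1.34-fold. Among the 3 lower lines KDM7 knockdown line 1 was highest by every Cavin2 probe set. The empty vector line and KDM7 knockdown line 2 changed places between probe sets, with line 2 at 1.14 times the empty vector line by 1416778_at and 0.84 times by the other two. With 1 array per line these steps have no error of their own. The lowest value of the high pair was still 5.65-fold, 5.05-fold and 5.27-fold above the highest of the other 3 lines.

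These were the widest such gaps among all 22519 kept probe sets. Probe sets with the parental and EGFP knockdown lines at least 4-fold above every other line numbered 5, or 0.0222%, of which 3 were the Cavin2 probe sets. At 2-fold there were 23, or 0.102%. Without a size, the pair lay above the other 3 for 11.7% of kept probe sets and below for 14.2%. As Cavin2 was chosen for this pattern, its place in this ranking is part of its selection.

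Set against the study's own arms, Cavin2 was spread widely within the controls. Probe set 1416778_at averaged 2751 ± 2014 (SD, n = 3) over the controls and 580 ± 47.9 (SD, n = 2) over the KDM7 knockdown lines. The log2 change, knockdown minus control as throughout, was -1.73 (SE 1.01). The change was -1.88 (SE 0.96) by 1416779_at and -1.96 (SE 1.08) by 1443832_s_at. The empty vector line, a control, was below both knockdown lines by 1416778_at and between them by the other probe sets. The arms therefore overlapped by all 3. No p-value is given for Cavin2, since its levels on these same arrays chose it.

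Some neuroblastoma markers also separated the high pair. The pair lay above the other 3 lines for 3 of the 11 kept markers, Isl1, Gata3 and Elavl4, and below for 1, Chgb, where 11.7% and 14.2% of kept probe sets did. Isl1, a LIM-homeodomain transcription factor of sympathetic and motor neurons, had the largest difference of the list (2.00 in log2). Its signal was 1493 in parental, 1998 in EGFP knockdown, 545 in empty vector, 316 in KDM7 knockdown 1 and 466 in KDM7 knockdown 2 cells. Gata3, a zinc-finger transcription factor of sympathetic neurons, had 554, 585, 224, 178 and 95.3 in the same order (1.87 in log2). In both genes the EGFP knockdown line was the highest, where for Cavin2 it was the parental line. Elavl4, a neuronal RNA-binding protein, differed by 0.44. The median over the 11 was 0.18 and over all kept probe sets -0.02. Between the study's arms, both knockdown lines lay below all controls for 4 of the 11, Isl1 and Gata3 among them, and above for 1. That held for 10.2% and 12.6% of kept probe sets. In limma 5 of the 11 had an unadjusted p under 0.05, beside 4.96% of kept probe sets, and 0 passed after adjustment. The part of these markers in the Cavin2 difference was not tested.

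Among the 8 smooth muscle markers, Acta2 and Myl9 separated the parental line from the rest. The list's summed signal was 5301 in the parental line, 368 in the EGFP knockdown line and 234 to 300.2 in the other 3. Most of the parental sum came from Acta2 and Myl9. Des was highest in KDM7 knockdown line 2, at 146 against 115 in the parental line, and Smtn in line 1, at 105 against 97.4. Under the filter, Myh11, Tagln and Lmod1 were highest in the EGFP knockdown line and Cnn1 in the parental line. Myl9, a myosin light chain and the member with the largest difference, had 2327, 56.9, 40.1, 7.88 and 4.33 in the parental, EGFP knockdown, empty vector and KDM7 knockdown 1 and 2 lines. Acta2, smooth muscle actin, had 2733, 73.3, 105, 89.6 and 39.3 in that order. The EGFP knockdown line thus had Cavin2 at 3463, with Acta2 inside the range of the 3 lower lines and Myl9 above them at 56.9. Myl9 was under the filter of 40.5 in those 3 lines and was kept mainly through its parental signal. Its step above them therefore rests on dim signals. Summed endothelial markers were 238 to 311, fibroblast markers 163 to 277 and adipocyte markers 160.0 to 324. In none of these sums was the pair above the other 3 lines. Among the few kept genes of these lists the largest log2 differences were 0.23 for Plvap, a protein of endothelial diaphragms, and 0.29 for Pdgfra, a growth factor receptor. Pparg, the nuclear receptor of fat cell differentiation, had -0.51. Genes under the filter differed by more in both directions, such as -2.17 for Fap and 1.80 for Emcn, on dim signals. In such bulk RNA, fewer cells with a transcript and less of it per cell cannot be told apart.

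Cavin1, the core cavin, was dim in every line by all 3 of its probe sets, which lay between 1.08 and 29.2 on all arrays. Probe set 1421431_at had 19.8 in parental, 10.1 in EGFP knockdown, 28.0 in empty vector, 16.1 in KDM7 knockdown 1 and 5.92 in KDM7 knockdown 2 cells. Parental and EGFP knockdown cells lay within the range of the rest. Probe set 1424130_a_at ran opposite to Cavin2, at 5.51 in parental and 4.18 in EGFP knockdown cells against 25.4, 17.0 and 29.2 in empty vector and KDM7 knockdown 1 and 2 cells. That difference of -2.28 on the log2 scale was under the filter on every array and came to -0.59 when 32 was added to every signal before log2. Probe set 1453891_at reached at most 9.06.

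Cavin3 and the caveolins were also under the filter. Cavin3 1423771_at had 7.24, 29.1, 20.2, 43.5 and 2.47 in the parental, EGFP knockdown, empty vector and KDM7 knockdown 1 and 2 lines. The KDM7 knockdown lines held both its highest and its lowest value. Cav1 1449145_a_at, for the main caveolin outside muscle, had 18.0 in parental, 32.1 in EGFP knockdown, 21.2 in empty vector, 43.8 in KDM7 knockdown 1 and 56.9 in KDM7 knockdown 2 cells. Both knockdown lines were above all controls, and both were just over the filter level while the controls were under it. The log2 difference was 1.11, and 0.57 with the offset of 32. Without the brightness filter limma gave it an adjusted p of 0.940.

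Of the 15 member probe sets 1, that of Cav1, had both knockdown lines on one side of all controls, a state that held for 21.5% of all 45037 probe sets and 22.8% of the kept ones. Cav2, which needs Cav1 to leave the Golgi, had 30.5, 47.2, 48.5, 33.1 and 23.4 by 1425955_at in the parental, EGFP knockdown, empty vector and KDM7 knockdown 1 and 2 lines. Its second probe set, 1417327_at, had 2.36, 26.4, 14.9, 2.43 and 1.82. In both, the parental line sat with the KDM7 knockdown lines, apart from the EGFP knockdown and empty vector lines.

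Ehd2 was measured by 5 probe sets, of which 3 were kept and gave no common direction. Probe set 1424157_at had 78.9 in parental, 149.8 in EGFP knockdown, 184 in empty vector, 126 in KDM7 knockdown 1 and 132 in KDM7 knockdown 2 cells. The parental line was lowest and the knockdown lines lay inside the control range, with an adjusted p of 1.00 in limma (log2 change -0.01, SE 0.37). Probe set 1435785_at had 67.3, 69.2, 107, 83.7 and 52.6 in the same order, with an adjusted p of 0.944 in limma (log2 change -0.26, SE 0.37). Here the empty vector line was highest.

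Probe set 1459823_at had 116, 72.6, 54.5, 137 and 88.6 in that order, with the empty vector line lowest and an adjusted p of 0.919 in limma (log2 change 0.51, SE 0.39). The empty vector line was thus the highest of the 5 by 2 kept Ehd2 probe sets and the lowest by 1459823_at. The remaining 2, 1424158_at and 1427729_at, were under the filter on every array. Among the 3 kept Ehd2 probe sets 0 passed limma's test and 0 had an unadjusted p under 0.05. Over all kept probe sets limma called 2, or 0.00888%, and 4.96% had an unadjusted p under 0.05. Without the trend and robust options limma called 0 overall.

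For the parental and EGFP knockdown lines against the other 3, the kept Ehd2 probe sets had log2 differences of -0.42 to 0.08, against 2.83 to 3.06 for Cavin2. Across the 12 probe sets outside Cavin2, 9 of them under the filter, the median was 0.04, beside -0.03 over all 45037 probe sets. The 3 Cavin2 probe sets had the pair above all other lines, which held for 10.2% of all 45037 probe sets, and 1424130_a_at of Cavin1 had it below, as did 12.8%. The other 11 member probe sets overlapped. The member profiles nearest to Cavin2 1416778_at after its own other probe sets were those of Ehd2 1427729_at, Ehd2 1459823_at and Cav2 1425955_at. They lay at a root mean square difference of 1.38, 1.39 and 1.39 on the log2 scale over the 5 arrays, where Cavin2's own other probe sets lay at 0.16 and 0.23. A flat profile lay at 1.40, so these distances show no likeness to Cavin2, and 1427729_at and 1425955_at were also under the filter.

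Genes related to the caveolar coat were mostly expressed above the filter and mostly did not share the Cavin2 pattern. Of 9 paralogs and partners 7 were kept and 0 passed limma's test in either direction, with 1 at an unadjusted p under 0.05. Both knockdown lines lay above all controls for 2, where 12.6% of kept probe sets did, and below for 1, where 10.2% did. The median log2 change was -0.08 against 0.03 over all kept probe sets. Ehd3, an EHD-family ATPase of recycling endosomes, had 110 in parental, 96.9 in EGFP knockdown, 93.8 in empty vector, 30.4 in KDM7 knockdown 1 and 50.1 in KDM7 knockdown 2 cells, with an adjusted p of 0.916 in limma (log2 change -1.36, SE 0.35). Its controls and knockdown lines did not overlap, but the value in line 1 was under the filter. It also had the largest difference of this list between the parental and EGFP knockdown pair and the rest, at 0.98, and the pair lay above the other 3 lines for 1 of the 7 and below for 2. Cavin4, the muscle cavin, had 58.6, 57.9, 77.6, 84.0 and 81.0 in the parental, EGFP knockdown, empty vector and KDM7 knockdown 1 and 2 lines, lower in the pair where Cavin2 was high. Cav3, the muscle caveolin, was under the filter.

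Proteins that bind caveolin or mark other membrane rafts had 14 of 16 genes kept and 0 past limma's test, with 0 at an unadjusted p under 0.05. Both knockdown lines lay above all controls for 4 and below for 2 of the 14, where 12.6% and 10.2% of all kept probe sets did. The pair was above the other 3 lines for 1 and below for 4, beside 11.7% and 14.2%, with a median log2 difference of -0.01. Among the 14 kept genes Flna, the actin crosslinker filamin A, had the largest, at 0.92. Its signal was 3392 in the parental line against 817 to 1154 in the other 4. The EGFP knockdown line, at 1075, was below KDM7 knockdown line 1. The flotillins, which form rafts without caveolin, stayed within 701 to 1003 for Flot1 and 1373 to 1510 for Flot2. Flot1 was among the genes just counted, with both knockdown lines (1003 and 947) above all controls and the pair below the other 3 lines. For Flot2 the groups overlapped in both contrasts.

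The clathrin pathway, the main other route of uptake, had 18 of 21 measured genes kept, with 0 past limma's test and 0 at an unadjusted p under 0.05. Both knockdown lines were above all controls for 5 and below for 1 of the 18, beside 12.6% and 10.2% of all kept probe sets, at a median log2 change of 0.11. The pair was above the other 3 lines for 0 and below for 4, beside 11.7% and 14.2%. Among the 18 kept genes Bin1, a membrane-bending protein, had the largest difference, at -0.60. It had 527 in parental and 538 in EGFP knockdown cells and 781 to 859 in the others.

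**Figure D2:**
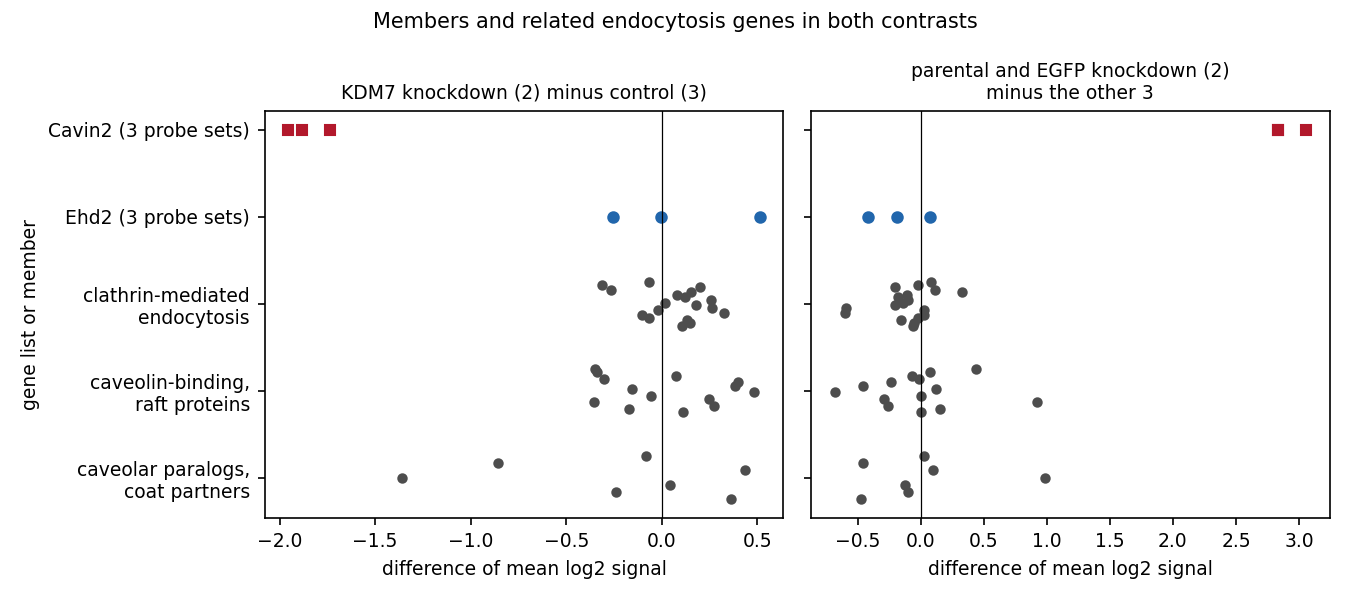
Differences of mean log2 signal for the kept probe sets of Cavin2 and Ehd2 and for the kept genes of 3 related lists, 1 point per probe set or gene, for KDM7 knockdown minus control (left) and the parental and EGFP knockdown lines minus the other 3 (right). Cavin2 stands at 2.83 to 3.06 on the right and -1.96 to -1.73 on the left, while every listed gene lies within 1 on the right.

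The profiles most like that of Cavin2 belonged to genes outside the caveolar coat. Likeness was the root mean square difference between centred log2 profiles over the 5 arrays, among 10866 genes with a kept probe set. Each gene was ranked by its kept probe set closest to Cavin2. The points share arrays and the measure has no test. Tmeff2, which encodes a transmembrane protein with follistatin-like and EGF-like modules, came first at 0.21. Its probe set 1419073_at had 762 in parental, 455 in EGFP knockdown, 92.1 in empty vector, 89.9 in KDM7 knockdown 1 and 101 in KDM7 knockdown 2 cells. As with Cavin2, 2 lines were high and 3 nearly equal (log2 difference 2.64). A dimmer Tmeff2 probe set, 1441598_at, had 92.4, 28.7, 17.5, 16.8 and 8.15 in the same order, and another, 1454132_at, reached at most 11.5.

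Flrt3, a leucine-rich repeat adhesion protein, came second at 0.29, with 235 in parental and 106 in EGFP knockdown cells and 21.7 to 23.0, under the filter, in the other 3. Chrna3, a nicotinic receptor subunit, followed at 0.36 and Tmsb4x, the actin-binding thymosin beta 4, at 0.40. Tmsb4x had 12231 and 5655 in the pair and 1516 to 1967 in the rest. The other named genes were Hdac9, a histone deacetylase (0.43), Wwtr1, the Hippo pathway effector TAZ (0.51), Dppa4 (0.52) and Ttc28 (0.54). Hdac9, Wwtr1, Dppa4 and Ttc28 were higher in the EGFP knockdown than in the parental line, the reverse of Cavin2. The other kept probe sets of Wwtr1 had log2 differences of 0.72 each, against 2.00 by 1417818_at. Those of Ttc28 had 1.48, 0.58 and 1.55, against 1.79 by the ranked 1449520_at. The other kept probe set of Chrna3 had 2.77, against 2.36 by the ranked 1452010_at.

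**Figure D3:**
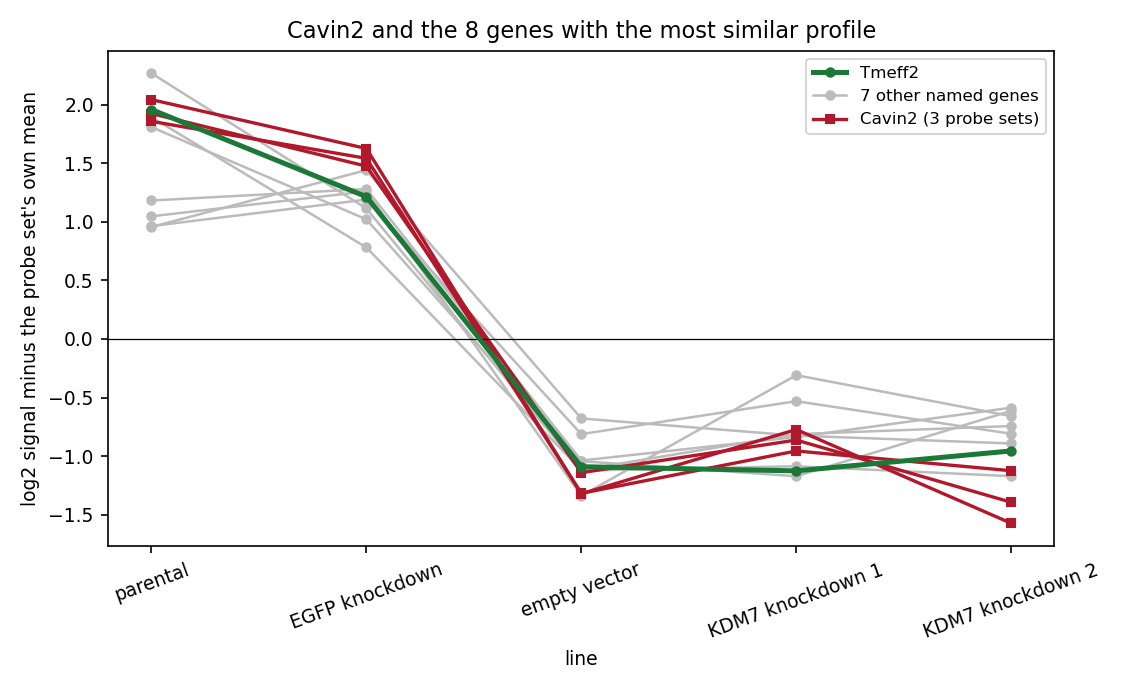
Log2 signal minus the probe set's own mean in each of the 5 lines for the 3 Cavin2 probe sets, Tmeff2 and 7 other genes with the most similar profiles. Tmeff2 follows Cavin2 with the parental line highest and the EGFP knockdown line next, and all other lines lie below the mean.

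Tmeff2 is also the nearest protein-coding gene on 1 side of Cavin2. In the RefSeq gene table of assembly GRCm38.p6 no other protein-coding gene starts between them, and their printed start-site windows begin 361603 bases apart on the same strand. The neighbours were looked at over 10 genes on each side after the ranking had been seen. Of the 10 protein-coding genes on each side of Cavin2, 15 of 20 had a probe set with 1 symbol and 9 were kept. Besides Tmeff2, the 8 kept neighbours had log2 differences of -0.42 to 0.03 between the pair and the rest.

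The genes next to this pair on either side did not share the pattern. Slc39a10, a zinc transporter and the nearest measured gene beyond Tmeff2, had 4077, 4281, 4096, 4698 and 4404 in the parental, EGFP knockdown, empty vector and KDM7 knockdown 1 and 2 lines. Nabp1, a single-stranded DNA binding protein on the other side of Cavin2, had 1026, 1052, 1209, 982 and 1297. Both were bright in all 5 lines, and the pair was not above the rest in either. The 6 dim neighbours had differences of -0.95 to 1.68, the highest for Slc40a1, an iron exporter, with 51.0 in the parental line and 14.0 in the EGFP knockdown line, below the empty vector line at 15.5.

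**Figure D4:**
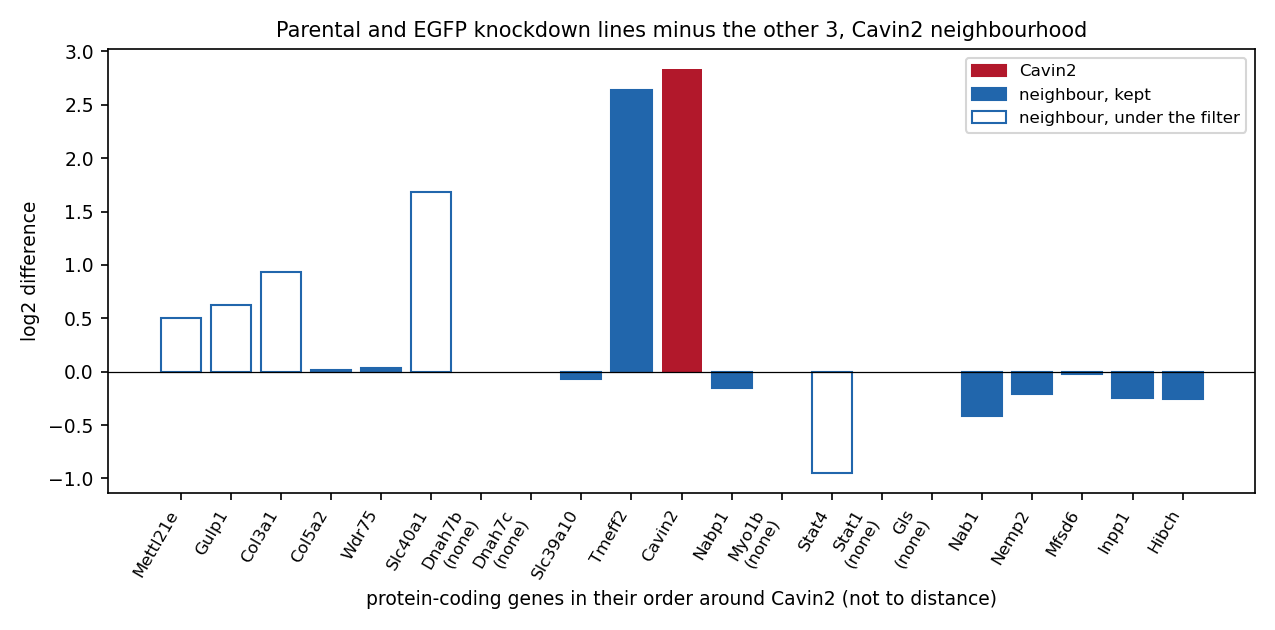
Log2 difference, parental and EGFP knockdown lines minus the other 3, for Cavin2 (red) and up to 10 protein-coding genes on each side, in chromosomal order and not to distance, with open bars for probe sets under the filter and "none" for genes without a probe set of 1 symbol. Cavin2 at 2.83 and its neighbour Tmeff2 at 2.64 stand apart from the 8 other kept neighbours, which lie between -0.42 and 0.03.

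The first place of Tmeff2 depended partly on single arrays. It ranked first after quantile normalization, median centring, cyclic loess and an offset of 32, and without the empty vector line or KDM7 knockdown line 2. Without KDM7 knockdown line 1 or the EGFP knockdown line it ranked second, and without the parental line it ranked 3. It ranked first against Cavin2 1416779_at, second against 1443832_s_at, and 4 among 18192 genes with no brightness filter.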

How the data were processed

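Total RNA of 5 Neuro2A lines was labelled as biotin cRNA and hybridised to 1 Affymetrix array each, per the labels' protocols. The deposited table holds linear signal intensities. The submitters' processing notes name MAS5 as the authors' tool, with no version given in the sources used here. The mean signal with 2% trimmed at each end was 496 on every array, so no further scaling was applied. The 64 AFFX controls were removed, the signals were log2-transformed, and probe sets at or above the median mean level were kept. KDM7 knockdown lines (2) were compared with controls (3) in limma 3.58.1 (R 4.3.3), by a linear model with moderated variances (trend and robust options, 3 residual degrees of freedom). P-values were adjusted by Benjamini-Hochberg across the 22519 kept probe sets, with a threshold of 0.05. The script was tested on simulated data. The number of arrays limits the precision.

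Symbols came from the platform annotation, where 34945 probe sets had 1 symbol, 932 several and 9160 none. Related lists used each gene's brightest kept probe set. Named genes were every member, Kdm7a and the 8 genes most like Cavin2. Each list also gave those past the threshold and the 1 kept gene with the largest difference in the pair contrast. Cavin4, the flotillins, Cav3, the other named markers and the neighbours of Cavin2 were named after their values were seen. The members and lists were chosen with earlier results of these data known. The alternatives were 3 other scalings, an offset of 32, other filters and variance models, and leaving out each array.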

Additional observations from a re-analysis of the deposited data

How the results depend on the processing

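Cavin2 1416778_at kept its log2 difference, parental and EGFP knockdown minus the other 3 lines, at 2.67 to 2.99 when each array was left out, and at 2.76 to 2.89 over quantile normalization, median centring, cyclic loess and an offset of 32. The other Cavin2 probe sets ranged from 2.61 to 3.28 over the same settings. Cavin2 was chosen for this difference on the same arrays, so these ranges describe it and do not test it. Without the parental or the EGFP knockdown line, the pair is a single array. In the arms of the study the Cavin2 log2 change was more dependent on single lines, from -2.74 without the empty vector line to -1.15 without the parental line by 1416778_at.

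The count of probe sets called for knockdown against control, 2 over the whole table, was 1 after median centring, 0 after cyclic loess, 0 without trend and robust, 0 with trend and without robust, and 0 to 4 with an array left out. It was 4 without the parental line, 0 without the EGFP knockdown line or KDM7 knockdown line 2, and 1 without the empty vector line or KDM7 knockdown line 1. The cause was not tested. No kept Ehd2 probe set passed in any of these settings. The log2 change of Ehd2 1424157_at ranged from -0.36 to 0.25 with an array left out and turned from -0.01 to 0.25 without empty vector, 0.10 without EGFP knockdown and 0.02 without KDM7 knockdown 1 cells. That of 1435785_at ranged from -0.59 to 0.078 and turned without KDM7 knockdown line 2 (0.078).

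Tmeff2 1419073_at, tried after the data were seen, ranged from 2.27 without the parental line to 3.02 without the EGFP knockdown line. Median centring moved the median knockdown change of all kept probe sets by -0.11. The values of Cavin1, Cavin3, Cav1 and Cav2 all rest on probe sets under the filter. No paired analysis was possible because the labels give no replicate numbers shared between the arms.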
